A study of Mus musculus with 12 samples.

Results

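The EGF receptor family and its ligands were followed in PB3 mouse breast cancer cells and in 3 drug-resistant lines made from them. The set held 10 of the 55573 genes in the files, chosen by gene symbol: the receptors Egfr, Erbb2 and Erbb3, and the ligands Areg, Ereg, Hbegf, Epgn, Tgfa, Btc and Nrg1. Polyadenylated RNA was sequenced in 12 libraries, 3 in each of 4 groups. ERI-R was selected in eribulin, PAC-R in paclitaxel and VIN-R in vinorelbine, 3 drugs that bind microtubules, each at 300, 500 and 800 nM per the labels, which call the resistant cells clones without giving their number. Control was the untreated parental line (PB3-Parental). All 4 groups carried the label Er-/Pr-/Her2- (without estrogen receptor, progesterone receptor and HER2) and were given the same medium. One line stood for each drug, so the effect of a drug and the particulars of the line that grew out of it cannot be told apart. Whether the numbered replicates came from different cultures is not in the labels, so the p-values refer to the spread between libraries, which may be technical.

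The receptors of this family are tyrosine kinases that signal as pairs, chiefly through RAS and the kinase ERK and through PI3-kinase and AKT. Egfr binds Areg, Ereg, Hbegf, Epgn, Tgfa and Btc; Erbb3, whose own kinase is weak, binds neuregulins such as Nrg1; Erbb2, the mouse counterpart of HER2, has no known ligand and serves as a partner. The ligands are made as membrane-bound precursors that proteases cut free. In the mammary gland Areg drives duct growth at puberty, and receptors of this family are drug targets in breast cancer.

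Against Control, ERI-R cells had less RNA of 4 ligands, Areg, Hbegf, Epgn and Btc, and more of 1 receptor, Erbb3. Levels are given as CPM, a gene's counts relative to the total of its library after scaling by the trimmed mean of M-values (TMM). Called means an adjusted p under 0.05 (Benjamini-Hochberg over the 14226 genes tested) in edgeR's quasi-likelihood test. Of the 10 genes, 9 were tested, and Ereg had too few reads. The 5 called genes stood against a background of 19.2% of all genes called in ERI-R against Control, 9.51% higher and 9.69% lower. The set and the lists further down were chosen with earlier results of these data known. Such counts therefore describe them and are no test of them. The median log2 fold change was -0.68 over the 9 genes and -0.00 over all genes tested. PAC-R and VIN-R had 0 of the 9 genes called against Control, where 0% of all genes were called.

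The 3 ligand genes of this set that were called and lie together on chromosome 5 are shown by the sequence before their start sites, since they changed in the same direction in ERI-R. RefSeq (GRCm38.p6) had a promoter entry for 6 of the 10 genes. The sequences run 5′ to 3′ on the gene's strand and end at the base before the annotated gene, with capitals marking TGACGTCA (a cyclic AMP response element, CRE), CACCTG on either strand (a core E-box of ZEB and SNAIL repressors) and the TATA box, whose letters are TATAAA:
Areg, chr5:91139349-91139598, plus strand: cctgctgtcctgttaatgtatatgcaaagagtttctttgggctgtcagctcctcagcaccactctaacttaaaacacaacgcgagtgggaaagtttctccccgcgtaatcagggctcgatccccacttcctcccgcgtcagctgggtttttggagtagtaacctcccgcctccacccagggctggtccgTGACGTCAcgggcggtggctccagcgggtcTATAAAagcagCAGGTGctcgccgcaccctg
Epgn, chr5:91027267-91027463, plus strand: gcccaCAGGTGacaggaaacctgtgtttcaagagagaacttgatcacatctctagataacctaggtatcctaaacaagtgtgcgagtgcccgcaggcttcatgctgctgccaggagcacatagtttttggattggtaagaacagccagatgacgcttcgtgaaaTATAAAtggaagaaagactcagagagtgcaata
Btc, chr5:91402995-91403244, minus strand: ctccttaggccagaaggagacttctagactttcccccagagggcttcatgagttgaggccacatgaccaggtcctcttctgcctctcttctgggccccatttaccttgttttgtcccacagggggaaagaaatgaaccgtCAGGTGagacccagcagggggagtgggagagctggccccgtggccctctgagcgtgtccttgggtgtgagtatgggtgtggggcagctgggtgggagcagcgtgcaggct

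Both strands of the 250 bases before each RefSeq start were searched, and no match overlapped another. Areg held TGACGTCA beginning 61 bases, TATAAA 31 bases and CAGGTG, the E-box on the other strand, 20 bases before its start. It also held GGGCGG, an SP1 motif left in lower case, at 52 bases. Epgn held CAGGTG at 245 bases and TATAAA at 86 bases before its RefSeq start, which lies inside the gene as GENCODE draws it. Btc held CAGGTG at 110 bases. TGANTCA, the AP-1 motif, was in none of the 3 windows. Among 32851 promoters of the same length, 17.2% held CACCTG, 1.55% TGACGTCA, 12.4% TATAAA, 32.7% GGGCGG and 6.75% TGANTCA. A match of this kind is a description of the letters and not a measured binding site.

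The libraries differed in depth, in leukocyte transcripts and in other genes. The depth was 11141028 to 13454395 expected counts, at which 3 counts in a library correspond to between 0.223 and 0.269 CPM before TMM scaling. In 8 libraries all 16 leukocyte markers were detected, with a summed level of 877 to 6559 CPM and at least 182 CPM of the macrophage gene Lyz2. The other 4 libraries, ERI-R 3, PAC-R 3, VIN-R 3 and Control 1, summed to 19.1 to 167 CPM, had 10 to 12 of the 16 markers at 0 and had no Lyz2. These 4 also stood apart in some genes that are not leukocyte markers. Within every group they were highest for Hras (34.7, 62.7 and 272 CPM in ERI-R 1 to 3) and lowest for Braf (113, 61.9 and 10.3 CPM). ERI-R 3 had the lowest TMM factor (0.855) and the shortest fragments (180 bases) of the 12 libraries. What set these 4 libraries apart was not tested. In bulk RNA, fewer cells of a type and less RNA per cell cannot be told apart. The markers Cd3e (T cells) and Hbb-bs (red cells) were at 0 in all 12 libraries, and Adipoq (adipocytes) was at or under 0.105 CPM. The endothelial markers Pecam1 and Cdh5 lay at 0.149 to 10.2 CPM and at 0 to 2.7 CPM, and neither was called in ERI-R against Control (0.70 ± 1.47 and -2.54 ± 1.04 on the log2 scale, edgeR adjusted p = 0.82 and 0.12). Esr1 lay between 5.05 and 14.3 CPM across libraries, and Pgr lay between 2.00 and 8.61 CPM in ERI-R and at or under 0.959 CPM in the other 3 groups. These are RNA levels of cells labelled Er-/Pr-, and they say nothing of receptor protein. Of 6 epithelial markers 4 were called higher in ERI-R against Control (Cdh1, Epcam, Krt5 and Krt14), where 9.51% of all genes were. The other epithelial markers, Krt8 and Krt18, went the other way and were not called (-0.79 and -1.19 on the log2 scale, edgeR adjusted p = 0.51 and 0.30). Krt5 had enough reads to be tested only through ERI-R. Of 4 mesenchymal markers 4 were called lower, where 9.69% of all genes were.

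**Figure D1:**
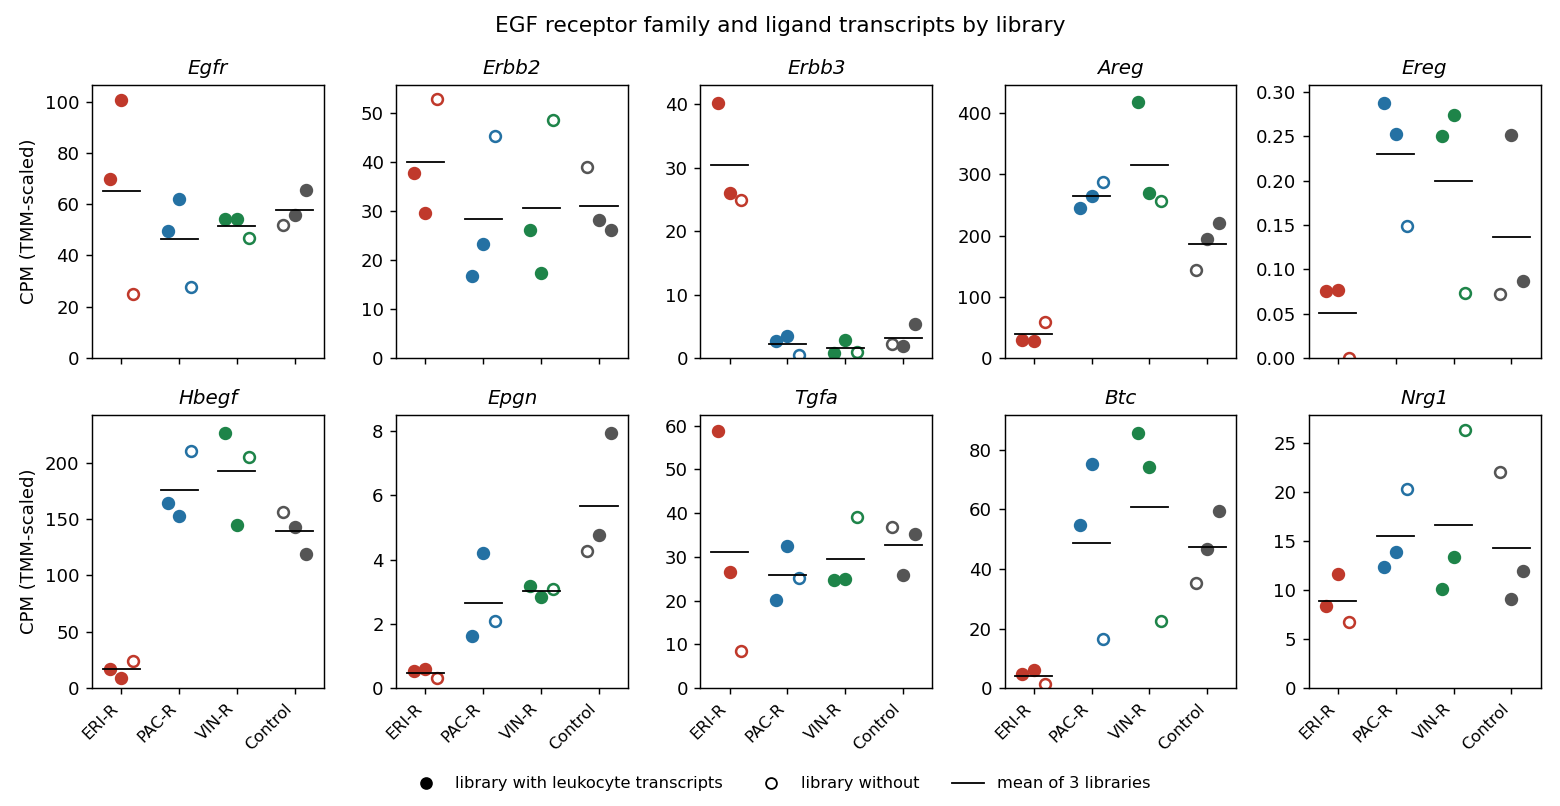
TMM-scaled CPM of the 10 genes in each library (points; open points are the 4 libraries without leukocyte transcripts) with the mean of 3 libraries (line), each panel on its own axis from 0. The 3 ERI-R libraries lie above all others for Erbb3 (24.9 to 40.2 CPM) and below all others for Areg, Hbegf, Epgn and Btc.

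Of the 3 receptors, Erbb3 was the one called in ERI-R against Control. Its level was 40.2, 26.1 and 24.9 CPM in ERI-R 1 to 3, 2.68, 3.54 and 0.448 CPM in PAC-R, 0.753, 2.92 and 1.03 CPM in VIN-R, and 2.17, 1.84 and 5.33 CPM in Control. Every ERI-R library was above every other library, while the other 3 groups overlapped. Erbb3 was higher in ERI-R than in Control by 3.29 ± 0.77 on the log2 scale (SE; edgeR adjusted p = 0.012). That call was lost without Control 1 (3.17, adjusted p = 0.052) or Control 2 (3.02, adjusted p = 0.057).

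Egfr, the receptor of most of the ligands, was expressed in every group. It was at 69.8, 100.6 and 24.9 CPM in ERI-R, 49.7, 62.1 and 27.6 CPM in PAC-R, 54.1, 54.2 and 46.8 CPM in VIN-R, and 52.0, 55.6 and 65.4 CPM in Control. ERI-R held both the highest and the lowest library, so the groups overlapped. In CPM, the library without leukocyte transcripts was the lowest within each group. The log2 fold change of ERI-R over Control was 0.18 ± 0.45 (edgeR adjusted p = 0.86). The mean transcript length that the authors' files give for Egfr, weighted by isoform, was 7026 to 8081 bases in the 4 libraries without leukocyte transcripts and 8798 to 9541 bases in the other 8. Reads of Egfros, an antisense gene that overlaps Egfr, came to 22 over all libraries.

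Erbb2 transcripts were present in all 12 libraries of these cells, which are labelled Her2-. RNA levels say nothing of HER2 protein, so the label and these levels are not at odds. The values were 37.7, 29.6 and 52.8 CPM in ERI-R, 16.8, 23.2 and 45.4 CPM in PAC-R, 26.0, 17.3 and 48.7 CPM in VIN-R, and 39.0, 28.1 and 26.1 CPM in Control. In CPM, the library without leukocyte transcripts was the highest within each group. Outside ERI-R, the 3 libraries without leukocyte transcripts lay at 39.0 to 48.7 CPM and the 6 with them at 16.8 to 28.1 CPM. ERI-R over Control gave 0.37 ± 0.46 on the log2 scale (edgeR adjusted p = 0.66). Mien1, a coding gene on the opposite strand, overlaps Erbb2 and had 2922 reads over all libraries; how strand was used in counting is not given in the sources used here, so shared reads cannot be told apart.

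Levels can be compared between genes in TPM, the authors' estimate of a gene's share of transcripts, which allows for transcript length. The order of libraries within a group depended on the unit. In TPM, ERI-R 3 was the lowest ERI-R library for Erbb2 (15.6, 10.7 and 9.13). For Egfr, VIN-R 3 was the highest VIN-R library (7.77, 8.39 and 10.3), and Control 1 was not the lowest Control library (11.3, 9.03 and 11.4). Erbb3 made up 29.8%, 20.8% and 22.1% of the receptor TPM (Egfr, Erbb2, Erbb3 and Erbb4 summed) in ERI-R 1 to 3, and between 0.554% and 6.49% in the other 9 libraries. In ERI-R, Egfr was at 12.5 ± 8.38, Erbb2 at 11.8 ± 3.39 and Erbb3 at 8.24 ± 5.08 TPM (SD, n = 3), with overlapping ranges. In Control, Erbb2 was at 11.4 ± 3.32 and Egfr at 10.6 ± 1.33 TPM, which overlapped, and Erbb3 lay below both at 0.860 ± 0.541 TPM (SD, n = 3).

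**Figure D2:**
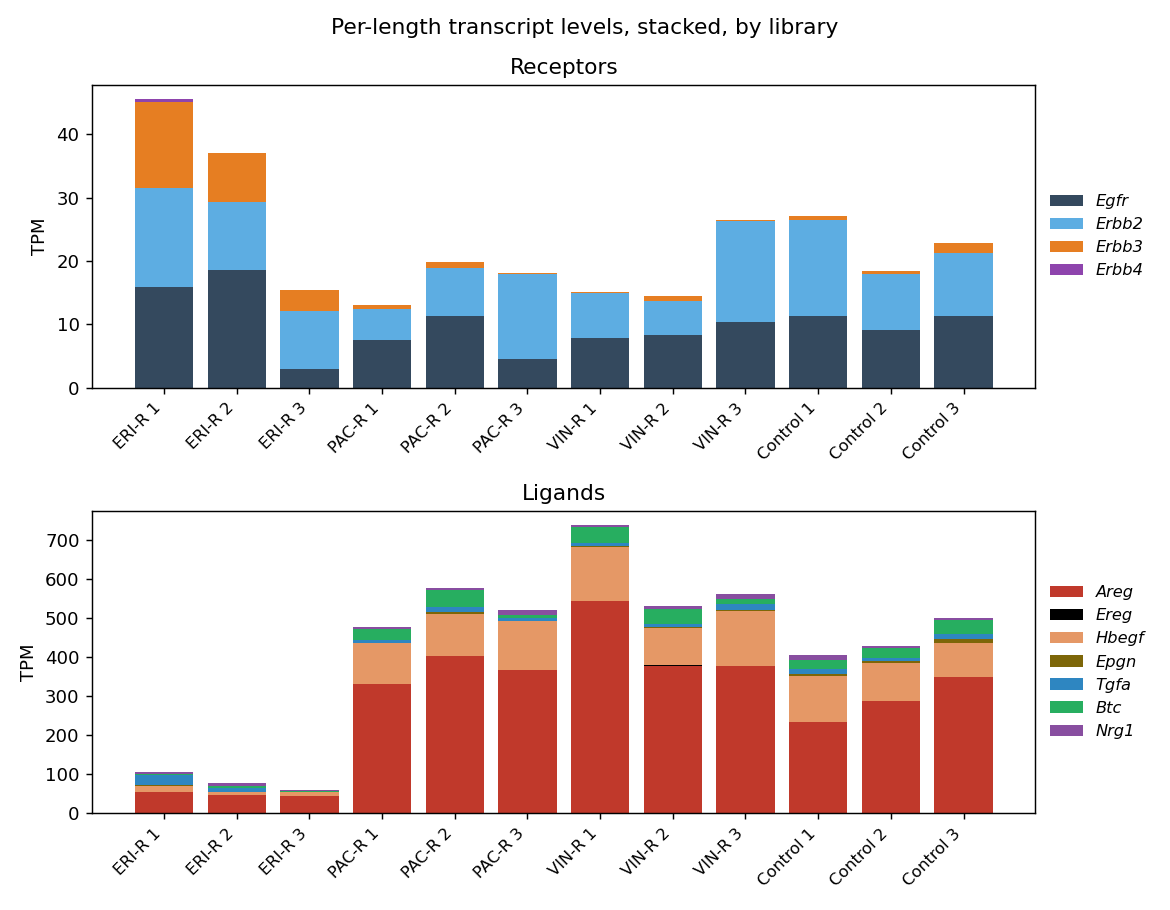
TPM of the 4 receptor genes (upper panel) and the 7 ligand genes (lower panel) stacked for each library. Ligand TPM sums to 59.2 to 107 in the ERI-R libraries and to 405 to 739 in the other 9, and Erbb3 (orange) is 20.8% to 29.8% of the receptor bar in ERI-R.

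Areg, amphiregulin, was the most abundant ligand transcript in every group. It was at 29.2, 28.0 and 58.5 CPM in ERI-R, 245, 264 and 287 CPM in PAC-R, 418, 269 and 256 CPM in VIN-R, and 144, 195 and 220 CPM in Control. ERI-R lay below all other libraries, and in CPM PAC-R and VIN-R each lay above all Control libraries. In TPM, PAC-R overlapped with Control, with PAC-R 1 at 332 and Control 3 at 351. Areg fell in ERI-R by 2.27 ± 0.36 on the log2 scale against Control (SE; edgeR adjusted p = 0.0017). In PAC-R and VIN-R the log2 fold changes over Control were 0.51 ± 0.34 and 0.76 ± 0.34, neither called (edgeR adjusted p = 1 for both), so the separation of the libraries was not enough for a call there.

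Hbegf, heparin-binding EGF-like growth factor, was the next most abundant ligand in Control. Its level was 17.1, 9.0 and 24.3 CPM in ERI-R, 165, 152 and 210 CPM in PAC-R, 227, 145 and 205 CPM in VIN-R, and 156, 143 and 119 CPM in Control. All ERI-R libraries were below all others, and the other 3 groups overlapped. Hbegf fell in ERI-R by 3.05 ± 0.38 on the log2 scale against Control (SE; edgeR adjusted p = 0.0006). PAC-R and VIN-R differed from Control by 0.33 ± 0.35 and 0.46 ± 0.35 and were not called (edgeR adjusted p = 1 for both).

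Btc, betacellulin, which binds ERBB4 as well as EGFR, was at 4.72, 6.10 and 1.26 CPM in ERI-R, 54.9, 75.2 and 16.4 CPM in PAC-R, 85.7, 74.1 and 22.4 CPM in VIN-R, and 35.3, 46.9 and 59.6 CPM in Control. The ERI-R libraries were the lowest 3, and the other groups overlapped. Btc fell in ERI-R by 3.54 ± 0.75 on the log2 scale against Control (SE; edgeR adjusted p = 0.0071). Its level also moved with the leukocyte transcripts: outside ERI-R, the 3 libraries without them lay at 16.4 to 35.3 CPM and the 6 with them at 46.9 to 85.7 CPM. In the 8 libraries with leukocyte transcripts alone, Btc fell in ERI-R by 3.17 on the log2 scale (edgeR adjusted p = 0.017).

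Epgn, epigen, a low-level ligand of EGFR, was at 0.533, 0.610 and 0.316 CPM in ERI-R, 1.63, 4.21 and 2.09 CPM in PAC-R, 3.18, 2.83 and 3.10 CPM in VIN-R, and 4.26, 4.78 and 7.96 CPM in Control. The ERI-R libraries lay below all others, and in CPM every PAC-R and VIN-R library lay below every Control library. In TPM, PAC-R overlapped with Control, with PAC-R 2 at 4.69, Control 1 at 4.52 and Control 2 at 4.59. Epgn fell in ERI-R by 3.50 ± 0.50 on the log2 scale against Control (SE; edgeR adjusted p = 0.0012). PAC-R and VIN-R gave -1.09 ± 0.45 and -0.90 ± 0.45 over Control and were not called (edgeR adjusted p = 1 for both). Reads of Epgn summed to 18 over the ERI-R libraries and to 207 over the Control libraries.

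Ereg, epiregulin, which lies between Epgn and Areg, had between 0 and 3 reads in each library. The sums were 2 reads in ERI-R, 8 in PAC-R, 7 in VIN-R and 5 in Control, at most 0.288 CPM in any library. The ratio of Control to ERI-R was 2.40, with a 95% counting interval of 0.393 to 25.2. A difference in Ereg was not detectable at this depth.

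Tgfa, transforming growth factor alpha, another EGFR ligand, spread most within ERI-R. It was at 58.7, 26.5 and 8.52 CPM in ERI-R, 20.1, 32.5 and 25.2 CPM in PAC-R, 24.8, 25.0 and 39.1 CPM in VIN-R, and 36.9, 25.9 and 35.2 CPM in Control. ERI-R held the highest and the lowest library of all 12. The log2 fold change of ERI-R over Control was -0.07 ± 0.54 (edgeR adjusted p = 0.96), and its sign changed with the scaling by total counts (0.10).

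Nrg1, the neuregulin that binds ERBB3 and ERBB4, was at 8.38, 11.7 and 6.73 CPM in ERI-R, 12.4, 13.9 and 20.3 CPM in PAC-R, 10.1, 13.4 and 26.4 CPM in VIN-R, and 22, 9.06 and 12 CPM in Control. The ERI-R libraries overlapped with those of VIN-R and Control. Over Control, ERI-R gave -0.68 ± 0.45 on the log2 scale (edgeR adjusted p = 0.35). Outside ERI-R, the 3 libraries without leukocyte transcripts lay at 20.3 to 26.4 CPM and the 6 with them at 9.06 to 13.9 CPM. In the 8 libraries with leukocyte transcripts the log2 fold change of ERI-R over Control was 0.06 (edgeR adjusted p = 0.92).

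**Figure D3:**
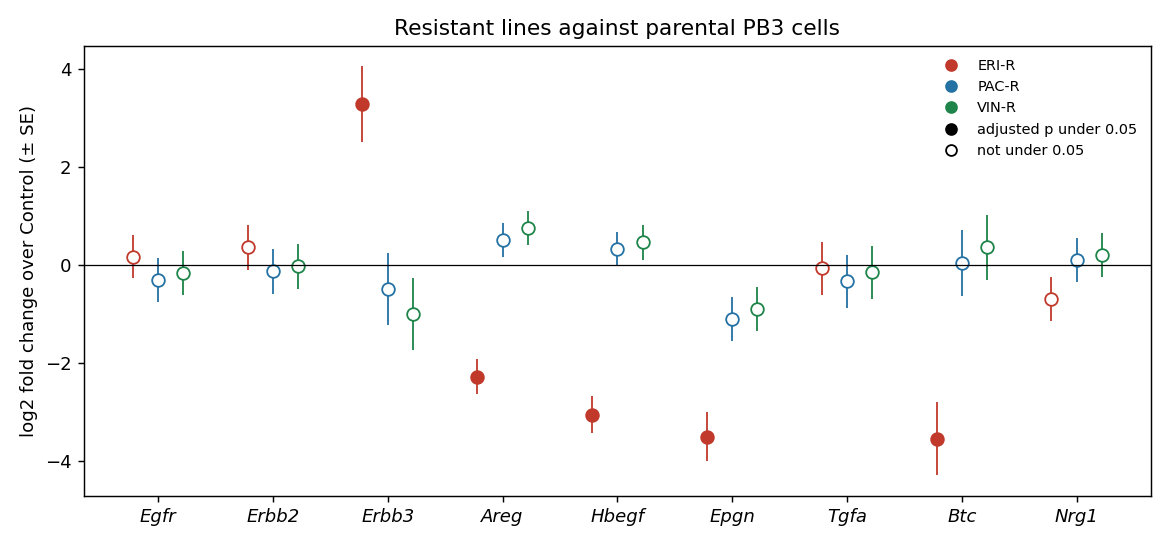
Log2 fold change over Control with its standard error for the 9 genes tested in ERI-R, PAC-R and VIN-R (edgeR; filled points have an adjusted p under 0.05). In ERI-R, Erbb3 is at 3.29 and Areg, Hbegf, Epgn and Btc are between -2.27 and -3.54, while all PAC-R and VIN-R points lie between -1.09 and 0.76 and are open.

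Per transcript length, the order of the ligands in ERI-R was Areg at 49.5 ± 5.57, Tgfa at 13.0 ± 12.7, Hbegf at 10.3 ± 4.24, Nrg1 at 5.27 ± 2.76, Btc at 2.64 ± 1.84, Epgn at 0.500 ± 0.294 and Ereg at 0.0233 ± 0.0208 TPM (SD, n = 3). Below Areg, each ligand down to Epgn overlapped its neighbour in that order. In Control the order was Areg at 291 ± 58.0, Hbegf at 101 ± 15.2, Btc at 28.0 ± 6.94, Tgfa at 12.1 ± 2.77, Nrg1 at 7.21 ± 4.24, Epgn at 5.78 ± 2.13 and Ereg at 0.0567 ± 0.0379 TPM (SD, n = 3). There Areg, Hbegf and Btc were each apart from the next, while Tgfa overlapped with Nrg1 and Nrg1 with Epgn. The ligands summed to 107, 77.9 and 59.2 TPM in ERI-R 1 to 3, and to between 405 and 739 TPM in the other 9 libraries. Ligand TPM was 2.35, 2.10 and 3.82 times the receptor TPM in ERI-R 1 to 3, and between 15 and 48.9 times in the other libraries.

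Set against the other resistant lines, ERI-R had the same 5 genes called. Against PAC-R, 5 of the 9 genes were called where 18.7% of all genes were. The background was 9.19% higher and 9.55% lower. The log2 fold changes of ERI-R over PAC-R were 3.77 ± 0.79 for Erbb3, -2.78 ± 0.37 for Areg, -3.39 ± 0.38 for Hbegf, -2.40 ± 0.49 for Epgn and -3.59 ± 0.75 for Btc (SE; edgeR adjusted p between 0.00051 and 0.0072). Against VIN-R, 5 of the 9 were called where 19.3% of all genes were. There the background was 9.55% higher and 9.74% lower. The log2 fold changes of ERI-R over VIN-R were 4.27 ± 0.81 for Erbb3, -3.03 ± 0.37 for Areg, -3.52 ± 0.39 for Hbegf, -2.60 ± 0.49 for Epgn and -3.90 ± 0.76 for Btc (SE; edgeR adjusted p between 0.00033 and 0.0043). The call of Epgn against PAC-R was lost when those 6 libraries were fitted alone (-2.32, adjusted p = 0.078). These comparisons share the ERI-R libraries with each other and with the comparison to Control, and the set was chosen with earlier results known.

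In PAC-R and VIN-R no gene of the set was called against Control. Over the 9 genes, log2 fold changes ran from -1.09 to 0.51 in PAC-R and from -0.99 to 0.76 in VIN-R, with medians of -0.13 and -0.02 against 0.05 and 0.04 over all genes tested. By edgeR 0 of all genes were called, while 245 genes in PAC-R and 381 in VIN-R had an unadjusted p under 0.05 and DESeq2 called 24 and 36 genes, 0 of them among the 9. Epgn in PAC-R was the 1 gene of the 9 with an unadjusted p under 0.05 (0.034). Erbb3 gave -0.49 ± 0.73 in PAC-R and -0.99 ± 0.74 in VIN-R. Between PAC-R and VIN-R, log2 fold changes ran from -0.32 to 0.50, and 0 of the 9 were called where 0% of all genes were (156 at an unadjusted p under 0.05, 5 by DESeq2).

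Epgn, Ereg, Areg and Btc lie within 376 kb on chromosome 5 of GRCm38, at chr5:91027464-91402994. Epgn (chr5:91027464-91035215), Ereg (chr5:91074622-91093646) and Areg (chr5:91139599-91148432) are on the plus strand and Btc (chr5:91357261-91402994) on the minus strand. Within 500 kb on either side the annotation places 12 other protein-coding genes, of which 7 had enough reads to be tested. Parm1, a mucin-like membrane protein gene next to Btc (chr5:91517615-91626894), was called in the opposite direction to the ligands. It averaged 61.3 ± 20.5 CPM in ERI-R, 1.41 ± 1.12 CPM in PAC-R, 0.851 ± 0.0859 CPM in VIN-R and 1.18 ± 0.877 CPM in Control (SD, n = 3), with no overlap of ERI-R with the rest. Parm1 rose in ERI-R by 5.69 ± 0.73 on the log2 scale against Control (SE; edgeR adjusted p = 0.00071). The other 6 (Rassf6, Pf4, Cxcl3, Cxcl1, Cxcl2 and Mthfd2l) had log2 fold changes from -1.74 to 0.84 and were not called (lowest edgeR adjusted p = 0.36). Cxcl1, Cxcl2, Cxcl3 and Pf4, which encode chemokines, were at or under 6.95 CPM in PAC-R, VIN-R and Control libraries without leukocyte transcripts.

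**Figure D4:**
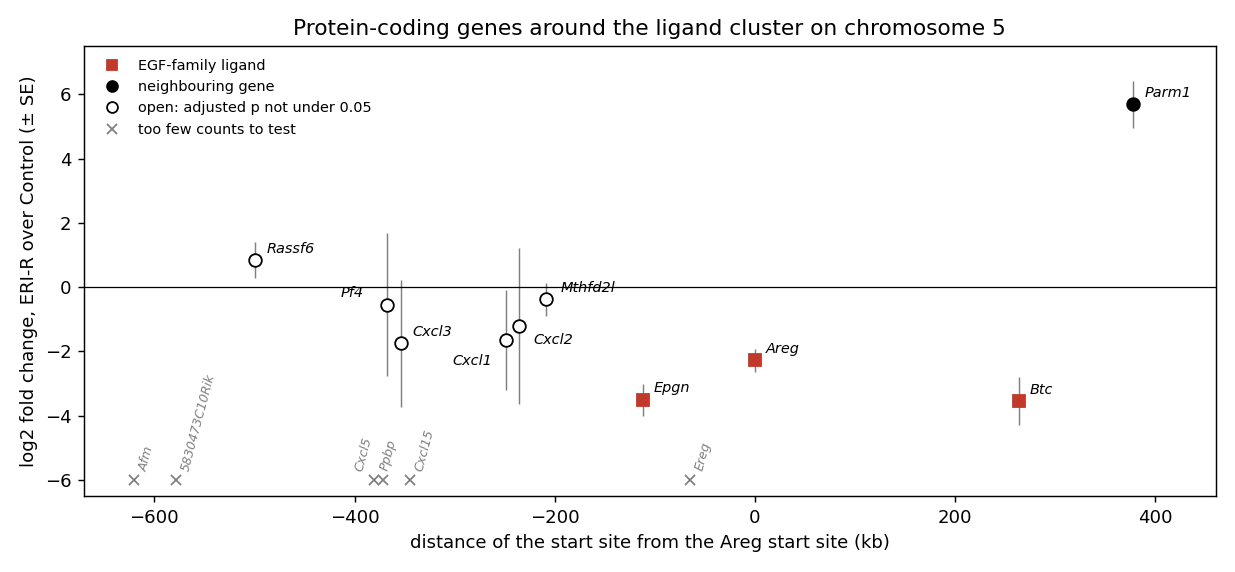
Log2 fold change of ERI-R over Control with its standard error for protein-coding genes around the ligand cluster, against the distance of each start site from that of Areg in kilobases (squares are the ligands, filled points have an edgeR adjusted p under 0.05, crosses at the bottom mark genes with too few reads). Epgn, Areg and Btc lie between -2.27 and -3.54, and Parm1, the gene farthest to the right, is at 5.69.

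The remaining genes lie elsewhere in GRCm38: Egfr at chr11:16752203-16918158, Erbb2 at chr11:98412470-98437716 and Tgfa at chr6:86195223-86275719 on the plus strand, and Erbb3 at chr10:128567523-128589652, Hbegf at chr18:36504927-36515805 and Nrg1 at chr8:31814551-32884029 on the minus strand. Gm26578, a lincRNA gene that overlaps Nrg1 on the other strand, had 24 reads over all libraries.

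Of the other receptor and ligands of the family, 2 of 5 genes had enough reads to be tested. Of these 2, 0 were called in ERI-R against Control, where 19.2% of all genes were. With 2 genes such a count is not read as a result. Erbb4, the other receptor of neuregulins and of Btc and Hbegf, had 2.67, 0.610 and 0.210 CPM in ERI-R 1 to 3 and no read in any of the other 9 libraries. Its 45 reads in ERI-R stood 15.6-fold above a floor of 3 counts over the 3 Control libraries. On the same floor the ratios were 15-fold over PAC-R and 15.3-fold over VIN-R. These ratios leave out the counting error of the ERI-R reads. Of those reads 35 came from ERI-R 1, 8 from ERI-R 2 and 2 from ERI-R 3. Without ERI-R 1 the ratios to the floor were 5.48-fold for Control, 5.26-fold for PAC-R and 5.37-fold for VIN-R. Nrg2, another neuregulin, was at 6.78, 6.10 and 15.6 CPM in ERI-R, 2.49, 3.03 and 5.08 CPM in PAC-R, 2.51, 0.914 and 3.47 CPM in VIN-R, and 5.28, 3.19 and 1.31 CPM in Control. All ERI-R libraries were above all others, but Nrg2 was not called in ERI-R against Control (1.53 ± 0.64 on the log2 scale, edgeR adjusted p = 0.13), PAC-R (1.42 ± 0.64, adjusted p = 0.17) or VIN-R (2.03 ± 0.65, adjusted p = 0.052). The level of Nrg2 moved with the leukocyte transcripts: outside ERI-R, the 3 libraries without them lay at 3.47 to 5.28 CPM and the 6 with them at 0.914 to 3.19 CPM, and in ERI-R the library without them was the highest. With the leukocyte marker score as a covariate it was called in all 3 (adjusted p = 0.013, 0.033 and 0.0028), and with the replicate block against PAC-R (1.44, adjusted p = 0.029). Egf lay between 0.148 and 1.07 CPM (0.46 ± 0.79 in ERI-R over Control, edgeR adjusted p = 0.77), Nrg4 reached at most 0.731 CPM in any library, and Nrg3 had no read.

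Genes that act around the receptors were taken from 5 lists, these 5 genes included, and 67 of the 70 were tested. Against Control, 4 of them were called higher and 12 lower in ERI-R, where 9.51% of all genes were called higher and 9.69% lower, while 0 were called in PAC-R or VIN-R. Of the 4, Cblc and Grb7 had enough reads to be tested only through ERI-R. Median log2 fold changes in ERI-R were -0.36 for ligand release, -0.72 for receptor inhibitors and turnover, -0.39 for adaptors and transducers and -0.81 for ERK-responsive genes, beside -0.00 for all genes tested. Furin, Rnf41, Socs5, Pik3r1, Dusp4, Spred3 and Spred2 are named below because few genes were called, a choice made after their values were seen.

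Of 11 ligand release genes, 0 were called higher and 3 lower in ERI-R (9.51% and 9.69% of all genes). Adam17, the main protease that frees Areg, Tgfa, Hbegf and Epgn, was at 103 ± 72.0 CPM in ERI-R, against 132 ± 31.3 CPM in Control (SD, n = 3), and was not called (edgeR adjusted p = 0.80). Adam19, which can cut neuregulins, was at 2.90, 1.75 and 0 CPM in ERI-R, against 43.1, 38.0 and 27.4 CPM in Control, and fell by 4.51 ± 0.90 on the log2 scale (edgeR adjusted p = 0.0056). Adam12, which can free Hbegf, averaged 3.29 ± 1.00 CPM in ERI-R, against 16.9 ± 2.17 CPM in Control and fell by 2.36 ± 0.30 (edgeR adjusted p = 0.0007). Furin, a convertase that activates such proteases, fell by 1.56 ± 0.36 (edgeR adjusted p = 0.011), a call that was lost without Control 1 (-1.23, adjusted p = 0.075).

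Of 14 genes for receptor inhibitors and turnover, 1 was called higher and 4 lower in ERI-R (9.51% and 9.69% of all genes), so the count of higher genes was near that of all genes. Errfi1, which blocks the EGFR kinase and is itself induced by EGFR signalling, averaged 42.0 ± 25.2 CPM in ERI-R, against 327 ± 48.8 CPM in Control (SD, n = 3) and fell by 2.96 ± 0.42 on the log2 scale (edgeR adjusted p = 0.0011). Lrig1, which lowers receptor protein, averaged 60.3 ± 34.2 CPM in ERI-R, against 255 ± 58.5 CPM in Control and fell by 2.08 ± 0.47 (edgeR adjusted p = 0.01). Cblc, a ubiquitin ligase of epithelial cells, was at 7.62, 10.5 and 60.4 CPM in ERI-R, against 0.506, 0.252 and 0.0874 CPM in Control, and rose by 6.46 ± 1.21 (edgeR adjusted p = 0.0061). Its reads summed to 811 in ERI-R, 11 in Control, 5 in PAC-R and 0 in VIN-R. Cblc thus had enough reads to be tested only through ERI-R, where it is high, so its call is no separate support for the rise. Socs5, which promotes EGFR degradation, and Rnf41, a ubiquitin ligase for ERBB3, fell by 1.39 ± 0.39 and 0.92 ± 0.23 (edgeR adjusted p = 0.028 and 0.017). Lrig1 was not called without Control 1 (adjusted p = 0.058), Socs5 without any 1 Control library or PAC-R 3 (adjusted p = 0.055 to 0.089), nor Rnf41 without Control 1, Control 3 or PAC-R 3 (adjusted p = 0.053 to 0.11). The count of genes called lower was 1 without Control 1 and 2 without Control 3 or PAC-R 3. With 1 library left out, 1867 to 2842 of all genes were called in either direction, against 2732 with all 12 libraries.

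Of 24 adaptors and transducers, 3 were called higher and 0 lower in ERI-R (9.51% and 9.69% of all genes), so the count of higher genes was near that of all genes. Grb7, an adaptor of ERBB2 and ERBB3 whose gene lies close to Erbb2, averaged 15.4 ± 9.45 CPM in ERI-R, against 0.167 ± 0.0950 CPM in Control (SD, n = 3) and rose by 6.46 ± 1.06 on the log2 scale (edgeR adjusted p = 0.0021). Its reads summed to 511 in ERI-R, 6 in Control, 3 in PAC-R and 1 in VIN-R. Grb7 thus had enough reads to be tested only through ERI-R, where it is high, so its call is no separate support for the rise. Gab1, a docking protein of EGFR, averaged 52.3 ± 17.8 CPM in ERI-R, against 12.8 ± 4.01 CPM in Control and rose by 2.03 ± 0.49 (edgeR adjusted p = 0.014). Pik3r1, the regulatory subunit of the PI3-kinase that ERBB3 recruits, averaged 248 ± 96.1 CPM in ERI-R, against 97.6 ± 7.87 CPM in Control and rose by 1.34 ± 0.37 (edgeR adjusted p = 0.026). Leaving out Control 1 ended the calls of Gab1 (adjusted p = 0.052) and Pik3r1 (adjusted p = 0.082), and Pik3r1 was also lost without ERI-R 1, ERI-R 2, Control 2 or Control 3 (adjusted p = 0.053 to 0.082). In the 8 libraries with leukocyte transcripts, 3 were called higher and 3 lower. The number of all genes called also changed between alternatives, from 1762 to 4521 apart from those with 1 library left out. The counts in the 8 libraries are therefore not read as a change of the list.

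Of 16 ERK-responsive genes, 0 were called higher and 5 lower in ERI-R (9.51% and 9.69% of all genes). Fosl1, the FOS-family subunit FRA-1 of AP-1, averaged 4.49 ± 2.07 CPM in ERI-R, against 115 ± 11 CPM in Control (SD, n = 3) and fell by 4.67 ± 0.44 on the log2 scale (edgeR adjusted p = 0.00033). Dusp5, an ERK phosphatase of the nucleus, averaged 10.5 ± 2.43 CPM in ERI-R, against 110.0 ± 29.4 CPM in Control and fell by 3.39 ± 0.41 (edgeR adjusted p = 0.00053). Dusp4, another nuclear phosphatase, and Spred3, an inhibitor of the RAS pathway, fell by 3.12 ± 0.46 and 2.7 ± 0.33 (edgeR adjusted p = 0.0013 and 0.00054). Spred2, its relative, fell by 1.69 ± 0.49 (edgeR adjusted p = 0.033), a call that was lost without ERI-R 2, any 1 Control library, PAC-R 1, PAC-R 3 or VIN-R 1 (adjusted p = 0.050 to 0.12). The other 11, among them Dusp6, Etv4, Etv5, Egr1 and Fos, were not called. Without ERI-R 1 the list had 8 genes called lower. With 1 library left out, 1867 to 2842 of all genes were called in either direction, against 2732 with all 12 libraries.

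**Figure D5:**
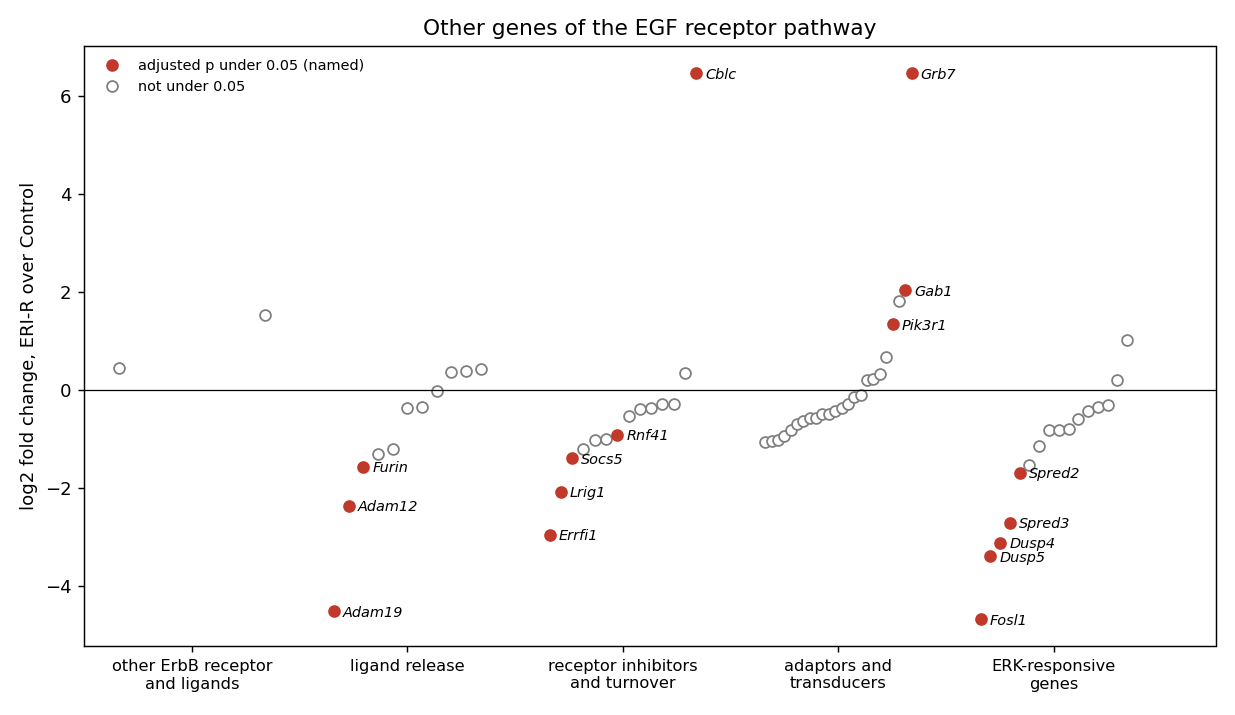
Log2 fold change of ERI-R over Control for the 67 tested genes of 5 lists around the EGF receptor family, in rising order within each list (filled and named where the edgeR adjusted p was under 0.05). The 4 genes called higher are Cblc, Grb7, Gab1 and Pik3r1, and the 12 called lower run from Rnf41 (-0.92) to Fosl1 (-4.67). Cblc and Grb7 had enough reads to be tested only through ERI-R.

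The genes whose CPM followed each member most closely were found by Pearson correlation of log2 CPM over the 12 libraries, which share cell line and, within a group, treatment, so the values are descriptions. Erbb3 was most like Akap9 (0.989), Chd9 (0.969) and Plcb4 (0.968), and Erbb2 was most like Exog (0.966), Jup (0.964) and Dgcr2 (0.964). Areg was most like Rer1 (0.976), Tpt1 (0.970) and Hbegf (0.969), the 1 case where another member was among the 3. Hbegf was most like Mettl7b (0.989), Adamts14 (0.988) and Cyb561a3 (0.986), and Btc was most like Rps6ka5 (0.990), Tmem74 (0.986) and Camk2d (0.984). Epgn was most like Cadm1 (0.968), Acsl6 (0.966) and Cdh10 (0.964), and Tgfa was most like Phf2 (0.964), Qsox2 (0.957) and Zfp180 (0.937). Egfr followed Eif2s3x, Abhd13 and Lin9 (0.964 to 0.967), and Nrg1 followed Nol9, Sh3pxd2a and Xpo5 (0.915 to 0.944).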

How the data were processed

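PolyA RNA of 12 libraries (Kapa mRNA HyperPrep, 200 ng of RNA, paired ends of 76 bases per the labels' protocols) was processed by the submitters. The tools RSEM 1.3.2, STAR 2.7.2b, cutadapt 2.4 and bcl2fastq 2.20.0.422 and the build GRCm38 are named, without their roles, per the submitters' processing notes. The authors deposited gene tables of RSEM, per the file headers, with an expected count (read pairs assigned to a gene, as estimated, with no scaling) and its TPM, scaled to transcript length and library. Per the file headers, the length column is a gene's mean transcript length. Strand setting and annotation were not given in the sources used here.

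Rounding the expected counts to whole numbers altered 15.3% of those above 0. Symbols and positions came from GENCODE M21 on GRCm38 (55394 of 55573 genes). Genes were filtered with filterByExpr and scaled by TMM, and 14226 were tested in 1 robust quasi-likelihood fit of all 12 libraries with a mean per group (edgeR 4.0.16, limma 3.58.1, R 4.3.3; 8 residual degrees of freedom). Adjusted p-values are Benjamini-Hochberg over all genes in each of 6 comparisons, called under 0.05. On simulated counts for ERI-R against Control (14226 genes, 200 of them changed), the fit recovered 12% of 4-fold and 75% of 16-fold changes and called 1 unchanged gene. The data had 2732 genes called in that comparison, so these figures need not hold for the data. The simulation also left out the differences that set 4 libraries apart. No 2 libraries of a group agreed within sampling noise.

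Alternatives were DESeq2 1.42.0, its size factors, total counts, other filters, the 6 libraries compared alone, a leukocyte marker score as a covariate, the 8 libraries with over 10 CPM of Lyz2, a replicate block and leaving out each library. The replicate numbers of the labels were checked by correlating deviations from group means: same-numbered libraries gave 0.62, 0.61 and 0.76 between ERI-R and PAC-R and 0.22, 0.75 and 0.92 between PAC-R and VIN-R, and the block was tried there on the 6 libraries as an alternative added after that check. In the other 4 comparisons at least 1 pair was under 0.1. The third library of each resistant line is one without leukocyte transcripts, so this pairing and the leukocyte transcripts cannot be told apart.

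All 10 members were reported whatever their result. From the other lists, the rule named up to 2 called rises and 2 called falls per list, and the other called genes were named after their values were seen, besides all 5 other ErbB genes and the coding genes near the ligand cluster, and the 3 genes most like each member with a mean of at least 1 CPM (Pearson, log2 CPM with a prior count of 1, predicted genes left out). The members and lists were chosen with earlier results of these data known. Intervals cover counting error only, and floors leave out the counting error of the higher group.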

Additional observations from a re-analysis of the deposited data

How the results depend on the processing

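In ERI-R, Areg, Hbegf and Btc kept direction and call against each of the 3 other groups in all alternatives, 21 against Control (log2 fold changes from -2.73 to -2.06, -3.35 to -2.73 and -3.98 to -3.05). Epgn lost 1 call, against PAC-R, and Erbb3 2, against Control, as given above; Erbb3 ran from 3.02 to 3.91 against Control. With each library left out in turn, between 4 and 5 of the 9 genes were called against Control and 5 against PAC-R and VIN-R.

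Counts over all genes changed more. With the 6 libraries compared alone, 1762, 1275 and 1512 genes were called in ERI-R against Control, PAC-R and VIN-R, and with the leukocyte marker score 4521, 4152 and 4301. For PAC-R against Control, DESeq2 called 24 and the score 3 genes, for VIN-R against Control 36 and 8, and for PAC-R against VIN-R DESeq2 called 5. Leaving out 1 library gave 1867 to 2842, 1825 to 2808 and 1988 to 2780 genes for ERI-R against Control, PAC-R and VIN-R, 0 to 2 for PAC-R and 0 to 5 for VIN-R against Control (both highest without ERI-R 3), and 0 for PAC-R against VIN-R.

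Among the values recomputed, signs changed only for ones that were not called. Against Control in ERI-R, Egfr was -0.0042 with the replicate block, Tgfa 0.10 with total counts and 0.60 in the 8 libraries with leukocyte transcripts, and Nrg1 0.061 in those 8. Leaving out 1 library gave -0.26 to 0.64 for Egfr, -0.87 to 0.44 for Tgfa and -0.029 to 1.13 for Egf. Against PAC-R, Tgfa was -0.019 with the replicate block on the 6 libraries and -0.56 to 0.76 with 1 library left out. Against VIN-R, Tgfa was -0.055 with the replicate block and -0.75 to 0.55, and Egfr -0.12 to 0.76, with 1 library left out. Erbb3 in PAC-R against Control was -1.0 to 0.14. Scaling by total counts moved the median of all genes by 0.14 against PAC-R and 0.12 against VIN-R.

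Of the pathway genes named for ERI-R against Control, Lrig1, Rnf41, Socs5, Pik3r1 and Spred2 were not called with the 6 libraries alone (edgeR adjusted p = 0.057 to 0.14), Rnf41, Socs5 and Spred2 not with total counts (0.083 to 0.087), Rnf41 and Socs5 not without a filter (0.12 and 0.061), and Rnf41 not in the 8 libraries (0.074). Genes called lower numbered 2 to 5 for ligand release, 1 to 7 for receptor inhibitors, 0 to 4 for adaptors and 4 to 8 for ERK-responsive genes over all alternatives. Over the same alternatives 1762 to 4521 of all genes were called in either direction, so these counts are not read as changes of the lists. Nrg2 against VIN-R was also called with DESeq2, either other scaling and the 8 libraries (adjusted p = 0.0086 to 0.049), and without PAC-R 3, Control 1 or Control 3 (0.042 to 0.045).

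Elsewhere the replicate block changed no call of a member. Whether the numbers pair the libraries outside the pairings above could not be decided. The correlation of deviations cannot be told apart from the leukocyte transcripts, which ERI-R 3, PAC-R 3, VIN-R 3 and Control 1 lack. With the block, 2666, 2604 and 2639 genes were called in ERI-R against Control, PAC-R and VIN-R.

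Whether the leukocyte transcripts took part in the results was not tested beyond the score and the 8 libraries. Epgn, Erbb4 and Ereg rest on few reads. So do the Control levels of Grb7, Cblc and Pgr, with 6, 11 and 3 reads over the Control libraries, and the size of their fold changes is uncertain. RNA levels say nothing of receptor protein or of ligand release. Changes of single members in PAC-R and VIN-R were recomputed only for Erbb3, Areg, Hbegf and Epgn, the ones given singly.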
